A study of Homo sapiens with 30 samples.

Results

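Glycolysis and the hypoxia response were followed through 38 genes, chosen by name and matched from Ensembl identifiers to symbols among the 60554 genes counted in each RNA-seq library. The glycolysis side holds 23 of them, made up of 20 enzymes and 3 transporters of glucose and lactate. The hypoxia side holds 15, made up of 5 genes of the hypoxia-inducible factor (HIF) system itself and 10 HIF targets. The rule went by gene name and used no measured value, though the genes were chosen with earlier results of these data known.

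The cells were T47D, a luminal human breast cancer line rich in progesterone receptor, at passages 18 to 20. There were 12 RNA-seq libraries in 6 groups of 2. In 4 of the groups an siRNA had been transfected, either a control (siControl) or one that targets CEBPA (siCEBPA), the gene of the transcription factor C/EBPα. Each was untreated, with the time label T0, or given progestin, with the time label T360 and no unit. A short arrest of 4 hours applied to all 8 of these libraries. Cells labelled ICRF were untreated or given progestin, and no siRNA, arrest or time is named for them. The labels do not explain the name ICRF, commonly used for drugs that block topoisomerase II. The sample titles name progesterone, while the protocol gives R5020, a synthetic agonist of the progesterone receptor, at 10 nM. All cells had been held in charcoal-treated serum for 48 hours and then without serum for 24 hours. Because every siRNA progestin library is labelled T360 and every siRNA untreated library T0, hormone and time label cannot be told apart there. Likewise a difference between ICRF and siControl cannot be told apart from the siRNA, the arrest or the time label. Nothing in the labels says that replicates came from separate cultures. A p therefore measures only how far these libraries spread, and that spread may be technical.

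Total counts per library ran from 57364785 to 148624099, with siControl untreated replicate 2 the deepest. CEBPA itself stood at 51.1 ± 4.71 CPM (counts scaled to library size with TMM factors, mean ± SD, n = 2) in siControl untreated cells and 11.4 ± 1.001 CPM in siCEBPA untreated cells. The progestin groups stood at 206 ± 2.01 CPM (siControl) and 59.9 ± 3.30 CPM (siCEBPA). All 10 luminal epithelial markers had a mean of at least 1 CPM. Their summed level ran from 5284 to 11097 CPM, and was lowest in ICRF progestin at 5414 ± 184 CPM against 11076 ± 29.5 CPM in ICRF untreated cells. Of 5 basal markers, KRT5, KRT14 and TP63 were under 1 CPM and ACTA2 and MYLK were not. The sum of the 5 ran from 13.7 to 45.1 CPM. Of 5 fibroblast markers, 4 were under 1 CPM and COL1A1 was not, with a sum of 25.8 to 69.6 CPM. All 4 endothelial and all 4 blood cell markers were under 1 CPM too, with sums of at most 1.20 and 0.175 CPM. The part of the change in luminal markers in the ICRF results below was not tested.

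Glycolysis splits glucose into pyruvate in the cytosol and yields ATP without oxygen. Its committed step is run by phosphofructokinase, and the PFKFB enzymes make and remove the small sugar phosphate that switches this step on. Lactate dehydrogenase turns the pyruvate into lactate, which leaves the cell through monocarboxylate transporters. In the hypoxia response, oxygen-dependent prolyl hydroxylases (the EGLN genes) mark the alpha subunits HIF1A and EPAS1 for destruction. When oxygen is short the alpha subunits last, pair with ARNT and bind the core letters ACGTG near their target genes, many of which are glycolytic. HIF activity is thus set largely at the protein level, which RNA counts do not show. Progesterone receptor binds as a steroid receptor to sites built from the core TGTTCT, and C/EBP factors to sites with the core TTGCNNAA.

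These 3 motifs were looked for on both strands in the 250 bases before each RefSeq transcription start (GRCh38.p14), and a match describes only the letters in that window. Of the 38 genes, 33 had at least 1 window, and PFKFB2, SLC16A1, BNIP3L, VEGFA and NDRG1 had none. ACGTG was present in 21 of the 60 windows of these genes (35%) and in 18.5% of all 35116 windows of the table. Counted by gene, in any of its windows, it was found in 13 of 21 glycolysis genes and in 5 of 12 genes of the hypoxia side. Counts by gene cannot be set against the 18.5% of windows, since a gene with more windows has more places to match. TGTTCT was present in 3 of the 60 windows (5%) against 12.4% of all windows, and TTGCNNAA in 3 of 60 (5%) against 9.05%. The palindrome CACGTG holds ACGTG on both strands and is also the E-box read by MYC and other factors. It was present in 8 of the 60 windows (13.3%), which belong to 8 of the 33 genes, and in 6.34% of all windows. The sites of those 8 genes are shown because the letters of the HIF core lie there on both strands at the same place. CACGTG is in capitals, with 10 bases on either side where the window allows, and all sequences are on the gene's own strand.

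HK2, chr2:74834966-74834991: ttgctgcgccCACGTGggagggagcc
HK2, chr2:74835011-74835036: ccggcgagagCACGTGgagagaatcg
PFKFB3, chr10:6202814-6202839: ccctcctcccCACGTGgaagggggct
ALDOA, chr16:30064375-30064400: gcagggaggcCACGTGatccgagtcc
ALDOC, chr17:28577120-28577145: aagtgcccggCACGTGgtaaagggat
GAPDH, chr12:6535173-6535198: tctgcggggtCACGTGtcgcagagga
LDHA, chr11:18394368-18394393: actcccagcgCACGTGgagcagtctg
LDHA, chr11:18394466-18394491: gcccgactcaCACGTGggttcccgca
BNIP3, chr10:131982042-131982067: gcacgcgccgCACGTGccacacgcac
ANKRD37, chr4:185396669-185396694: cgccgggctcCACGTGccagtgtttg

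HK2 and LDHA each carried the palindrome at 2 places, and the other 6 genes at 1 place. ALDOC and BNIP3 lie on the minus strand and the others on the plus strand. Annotated exons cover all 250 bases of the ALDOC and ANKRD37 windows. They cover 225 bases of the ALDOA window, 175 of LDHA, 128 of GAPDH, 90 of BNIP3 and 78 of PFKFB3. The second LDHA site lies past the annotated start of the gene, at base 18394388. The whole HK2 window at an inner start of the gene, chr2:74834920-74835169, touches no annotated exon and shows how both of its sites sit in a stretch rich in G and C, with ACGTG on either strand in capitals.

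HK2 window: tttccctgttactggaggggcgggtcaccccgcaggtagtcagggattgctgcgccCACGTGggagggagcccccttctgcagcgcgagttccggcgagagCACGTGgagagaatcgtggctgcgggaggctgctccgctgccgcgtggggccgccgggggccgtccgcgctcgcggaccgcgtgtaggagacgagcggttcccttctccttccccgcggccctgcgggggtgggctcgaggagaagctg

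For BNIP3 the 160 bases of the window that precede its first annotated exon, chr10:131982014-131982173, are shown in the same way.

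BNIP3 window: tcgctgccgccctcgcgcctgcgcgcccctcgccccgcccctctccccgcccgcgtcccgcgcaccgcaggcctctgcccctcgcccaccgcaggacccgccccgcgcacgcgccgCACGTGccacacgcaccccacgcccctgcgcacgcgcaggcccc

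Which start these cells use was not examined. ACGTG was in a window of 10 of the 19 genes with a window that rose with progestin in siControl cells, and of 6 of the 9 that fell. These are counts by gene as well, and no share by gene was taken over the whole RefSeq set.

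In siControl cells 8 glycolysis genes (PFKFB3, PFKFB4, HK2, SLC2A1, LDHA, ALDOA, SLC16A1 and HK1) rose at least 2-fold with progestin. Of all 18351 genes tested, 1503 passed with such a rise and 1536 with such a fall, together 16.6%. PFKM and PFKL fell, and GAPDH and PKM did not pass. Of the 22 glycolysis genes tested, 15 rose, 5 fell and 2 did not pass (adjusted p under 0.05, edgeR, adjusted over all genes tested). Across all 18351 genes tested 58.5% passed, 29.2% upward and 29.3% downward. On the hypoxia side 9 of 14 tested genes rose and 4 fell. Since most of these genes are abundant, and abundant genes pass more often, the same share was taken over genes with a mean of at least 20 CPM, a level chosen after the values were seen. There 71.5% of 7896 genes passed, against 30 of 33 members. Genes of that level leaned upward as well, with 42.9% higher and 28.6% lower. The median log2 change was 0.28 over the glycolysis genes, 0.60 over the hypoxia genes and -0.03 over all genes. No median was taken over the genes with at least 20 CPM. In bulk RNA of this kind, fewer cells with a transcript and less transcript per cell cannot be told apart.

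**Figure D1:**
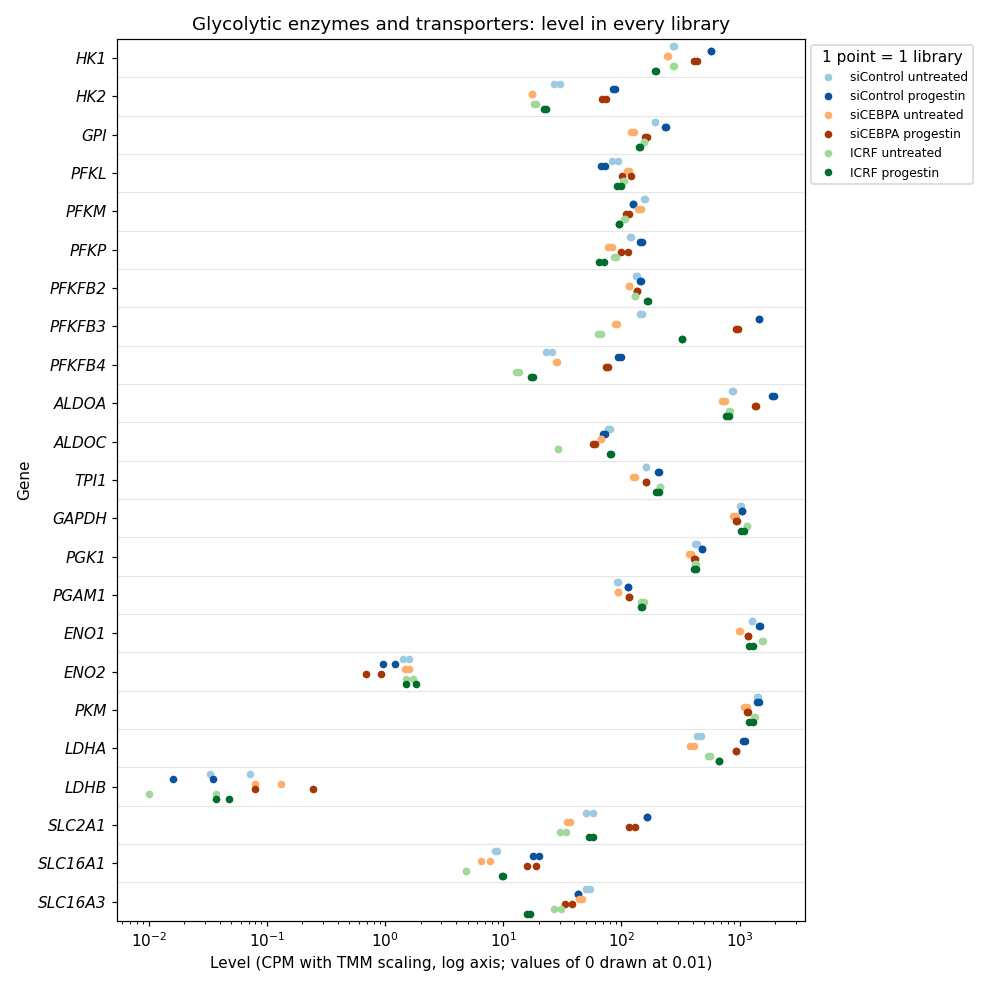
Level of each of the 23 glycolysis genes in every library, in CPM with TMM scaling on a log axis, with 1 point per library and colours for the 6 groups. PFKFB3 shows the widest step between untreated and progestin libraries, while GAPDH and PKM stay between 882 and 1456 CPM and LDHB lies under 1 CPM throughout.

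PFKFB3 (chr10:6144934-6235545) gave the largest change among the 36 genes tested in siControl cells. It read 145 and 149 CPM in the untreated siControl libraries and 1451 and 1462 CPM with progestin. In siCEBPA cells it read 91.0 and 88.4 CPM and then 929 and 961 CPM, and in ICRF cells 67.5 and 63.7 CPM and then 324 and 325 CPM. Every progestin library thus lay above every untreated library, with the ICRF progestin libraries far below the siRNA ones. The log2 change with progestin was 3.30 ± 0.04 in siControl (SE, 9.83-fold, adjusted p = 2.87e-17), 3.39 ± 0.04 in siCEBPA and 2.29 ± 0.04 in ICRF cells. PFKFB3 is the family member whose kinase activity most exceeds its phosphatase activity, and so it favours glycolytic flux.

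The other family members behaved otherwise. PFKFB4 rose from 25.6 and 22.9 to 98.5 and 93.7 CPM in siControl cells, a log2 change of 1.98 ± 0.06. It rose less in siCEBPA cells (1.42 ± 0.06) and least in ICRF cells (0.38 ± 0.07, from 12.9 and 13.7 to 17.9 and 17.2 CPM). PFKFB2 differed little, by 0.11 ± 0.04 in siControl, 0.22 ± 0.04 in siCEBPA and 0.35 ± 0.04 in ICRF cells. Its siControl change missed the threshold without siControl untreated replicate 2 (adjusted p = 0.122), siControl progestin replicate 1 (0.0788) or siControl progestin replicate 2 (0.0617). Counted per length (RPKM), PFKFB3 made up 61.0% ± 1.17 (SD, n = 2) of the family's transcripts in untreated siControl cells and 89.8% ± 0.263 with progestin, while the share of PFKFB2 went from 29.9% ± 0.472 to 4.85% ± 0.0607. In ICRF cells the share of PFKFB3 went from 44.4% ± 1.14 to 75.4% ± 0.111, so the family was led by PFKFB2 before and by PFKFB3 after progestin.

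Hexokinases trap glucose in the cell as glucose phosphate. HK1, the main form here, read 281 and 276 CPM in untreated siControl cells and 571 and 571 CPM with progestin, and 249.9 and 243 against 413 and 439 CPM in siCEBPA cells. In ICRF cells it read 276 and 274 CPM untreated and 198 and 194 CPM with progestin, the opposite order, with no overlap between groups in any of the 3 settings. Its log2 change was 1.02 ± 0.04 in siControl and 0.78 ± 0.04 in siCEBPA cells, and it fell by 0.51 ± 0.03 in ICRF cells (adjusted p = 1.63e-17). HK2, the inducible form, rose from 26.6 and 30.1 to 84.6 and 88.1 CPM in siControl cells and from 17.4 and 17.5 to 68.3 and 73.9 CPM in siCEBPA cells. It rose only from 19.0 and 18.4 to 22.1 and 23.1 CPM in ICRF cells. Its log2 changes were 1.59 ± 0.06, 2.01 ± 0.07 and 0.26 ± 0.06 in that order. HK2 supplied 9.26% ± 0.829 of hexokinase RPKM in untreated siControl cells and 13.2% ± 0.330 with progestin, so HK1 stayed the main form.

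GPI, the isomerase that follows, rose by 0.29 ± 0.04 in siControl and 0.36 ± 0.04 in siCEBPA cells and fell by 0.14 ± 0.04 in ICRF cells. The 3 phosphofructokinase genes split. PFKP (platelet form) rose by 0.28 ± 0.06 in siControl and 0.40 ± 0.06 in siCEBPA cells and fell by 0.39 ± 0.04 in ICRF cells. PFKM (muscle form) fell by 0.34 ± 0.05, 0.35 ± 0.05 and 0.17 ± 0.04 in siControl, siCEBPA and ICRF cells. PFKL (liver form) fell by 0.36 ± 0.08 in siControl cells and by 0.14 ± 0.04 in ICRF cells, and did not pass in siCEBPA cells (-0.052 ± 0.08, adjusted p = 0.597). The ICRF call of PFKL was lost without ICRF untreated replicate 2 (adjusted p = 0.0655) and in the fit of all 12 libraries (0.173). By RPKM, PFKP went from 44.0% ± 0.0948 to 54.7% ± 0.597 of the phosphofructokinase sum in siControl cells and from 41.2% ± 0.254 to 37.2% ± 1.11 in ICRF cells.

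Aldolases cleave the doubly phosphorylated sugar. ALDOA (chr16:30053090-30070457) read 865 and 876 CPM untreated and 1953 and 1882 CPM with progestin in siControl cells, and 749 and 708 against 1346 and 1380.3 CPM in siCEBPA cells. In ICRF cells it read 823 and 814 CPM and 821 and 765 CPM, where the libraries of the groups were close to each other. The log2 change was 1.13 ± 0.04 in siControl (2.18-fold, adjusted p = 1.00e-12) and 0.90 ± 0.04 in siCEBPA cells, and it did not pass in ICRF cells (-0.062 ± 0.03, adjusted p = 0.112). Without ICRF progestin replicate 1 it passed there as a fall (log2 -0.11, adjusted p = 0.000414). ALDOC, the brain form, ran the other way. It read 77.3 and 80.7 and then 72.4 and 69.3 CPM in siControl cells, 67.4 and 67.7 and then 60.1 and 57.7 CPM in siCEBPA cells, but 29.3 and 28.9 and then 81.4 and 80.0 CPM in ICRF cells. Only the ICRF untreated libraries were low; the other groups lay between 57.7 and 81.4 CPM. ALDOC rose by 1.45 ± 0.05 in ICRF cells (adjusted p = 3.70e-29) and fell by 0.17 ± 0.05 in siControl and 0.20 ± 0.05 in siCEBPA cells. The siControl fall was lost without siControl untreated replicate 2 (adjusted p = 0.0746) or siControl progestin replicate 2 (0.0937). Its share of aldolase RPKM went from 16.0% ± 0.285 to 7.21% ± 0.0298 in siControl cells and from 6.96% ± 0.00541 to 17.6% ± 0.546 in ICRF cells.

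From triose phosphate to pyruvate the changes were small. TPI1 rose by 0.33 ± 0.04 in siControl and 0.32 ± 0.04 in siCEBPA cells, PGAM1 by 0.30 ± 0.04 and 0.29 ± 0.04, and ENO1 by 0.21 ± 0.04 and 0.23 ± 0.04. In ICRF cells TPI1 (-0.076 ± 0.03, adjusted p = 0.0562) and PGAM1 (-0.040 ± 0.04, adjusted p = 0.357) did not pass, and ENO1 fell by 0.35 ± 0.03. Without ICRF progestin replicate 1 the fall of TPI1 passed (log2 -0.12, adjusted p = 0.00179). PGK1, the first enzyme of the pathway that yields ATP, rose by 0.15 ± 0.04 in siControl and 0.12 ± 0.04 in siCEBPA cells. These rises were lost without siControl untreated replicate 2 (adjusted p = 0.0605), siCEBPA untreated replicate 2 (0.0916) or siCEBPA progestin replicate 1 (0.108).

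GAPDH, which the study's own PCR protocol used as its correction gene, read 1039 and 1002 CPM untreated and 1045 and 1052 CPM with progestin in siControl cells, with no change that passed (0.027 ± 0.04, adjusted p = 0.595). It did not pass in siCEBPA cells either (0.047 ± 0.04, adjusted p = 0.346), and fell by 0.14 ± 0.03 in ICRF cells. PKM, the pyruvate kinase, was among the most abundant of these genes at 1432 ± 19.2 CPM and did not pass in siControl (-0.0080 ± 0.04, adjusted p = 0.878) or siCEBPA cells (0.054 ± 0.04, adjusted p = 0.273). It fell by 0.10 ± 0.03 in ICRF cells, a call lost without ICRF untreated replicate 1 (adjusted p = 0.0876), without ICRF progestin replicate 2 (0.131) or in the fit of all 12 libraries (0.0550). Without siCEBPA untreated replicate 1 it passed in siCEBPA cells as a rise (log2 0.11, adjusted p = 0.0482). Total PKM counts do not part its M1 and M2 splice forms. Several of these enzymes, GAPDH among them, have many processed pseudogenes, and the counting commands in the file headers set nothing for multiply aligned reads, so reads that match both gene and copy may be missing from their counts.

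ENO2, the neuronal enolase, was near 1 CPM, and ENO1 gave 99.9% ± 0.00890 of enolase RPKM. ENO2 read 1.42 and 1.59 CPM untreated and 0.956 and 1.21 CPM with progestin in siControl cells and fell by 0.50 ± 0.20. This fall missed the threshold without siControl untreated replicate 1 (adjusted p = 0.0509), siControl untreated replicate 2 (0.214), siControl progestin replicate 1 (0.311), siCEBPA untreated replicate 1 (0.0551) or siCEBPA untreated replicate 2 (0.0543), with DESeq2 (0.157) and with no filter on low counts (0.0540). In siCEBPA cells it fell by 0.94 ± 0.22.

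LDHA (chr11:18394388-18408425) closes the pathway. It read 468 and 436 CPM untreated and 1107 and 1068 CPM with progestin in siControl cells, and 408 and 379 against 941 and 927 CPM in siCEBPA cells. In ICRF cells the values were 558 and 543 and 674 and 668 CPM, a smaller step from a higher start. The log2 changes were 1.26 ± 0.05 (2.39-fold, adjusted p = 1.27e-12), 1.24 ± 0.05 and 0.27 ± 0.03 in siControl, siCEBPA and ICRF cells. LDHB, the subunit that favours lactate use, was at most 0.247 CPM in any library and did not pass the filter on low counts. LDHA thus made up 100.0% ± 0.0114 of the lactate dehydrogenase RPKM in untreated siControl cells.

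Summed over the 20 enzymes, the level was 6976 ± 70.1 CPM in untreated siControl cells and 10776 ± 18.3 CPM with progestin. Of this difference of 3801 CPM, PFKFB3 gave 34.5%, ALDOA 27.5%, LDHA 16.7% and HK1 7.69%, so 4 genes made most of it. The sum went from 5781 ± 173 to 8485 ± 51.9 CPM in siCEBPA cells. The ICRF groups stood at 7200 ± 65.9 CPM (untreated) and 7004 ± 248 CPM (progestin), where the libraries of the groups overlapped.

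Among the transporters, SLC2A1 (GLUT1, the main glucose importer of many tumour cells) rose in all 3 settings. It read 50.6 and 57.5 against 164 and 163 CPM in siControl, 36.9 and 35.0 against 117 and 129.5 CPM in siCEBPA and 33.7 and 30.1 against 57.9 and 53.6 CPM in ICRF cells. Its log2 changes were 1.58 ± 0.06, 1.77 ± 0.06 and 0.79 ± 0.05. SLC16A1 (MCT1, a carrier of lactate and pyruvate) rose by a like amount in each, by 1.10 ± 0.10, 1.28 ± 0.10 and 1.01 ± 0.09, from a low level of 8.69 ± 0.146 CPM in siControl cells. SLC16A3 (MCT4, the exporter of lactate in glycolytic cells and a known HIF target) went down in all 3, by 0.30 ± 0.06, 0.35 ± 0.07 and 0.83 ± 0.07. It read 30.8 and 26.7 CPM in ICRF untreated and 16.8 and 15.8 CPM in ICRF progestin cells, its lowest level.

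**Figure D2:**
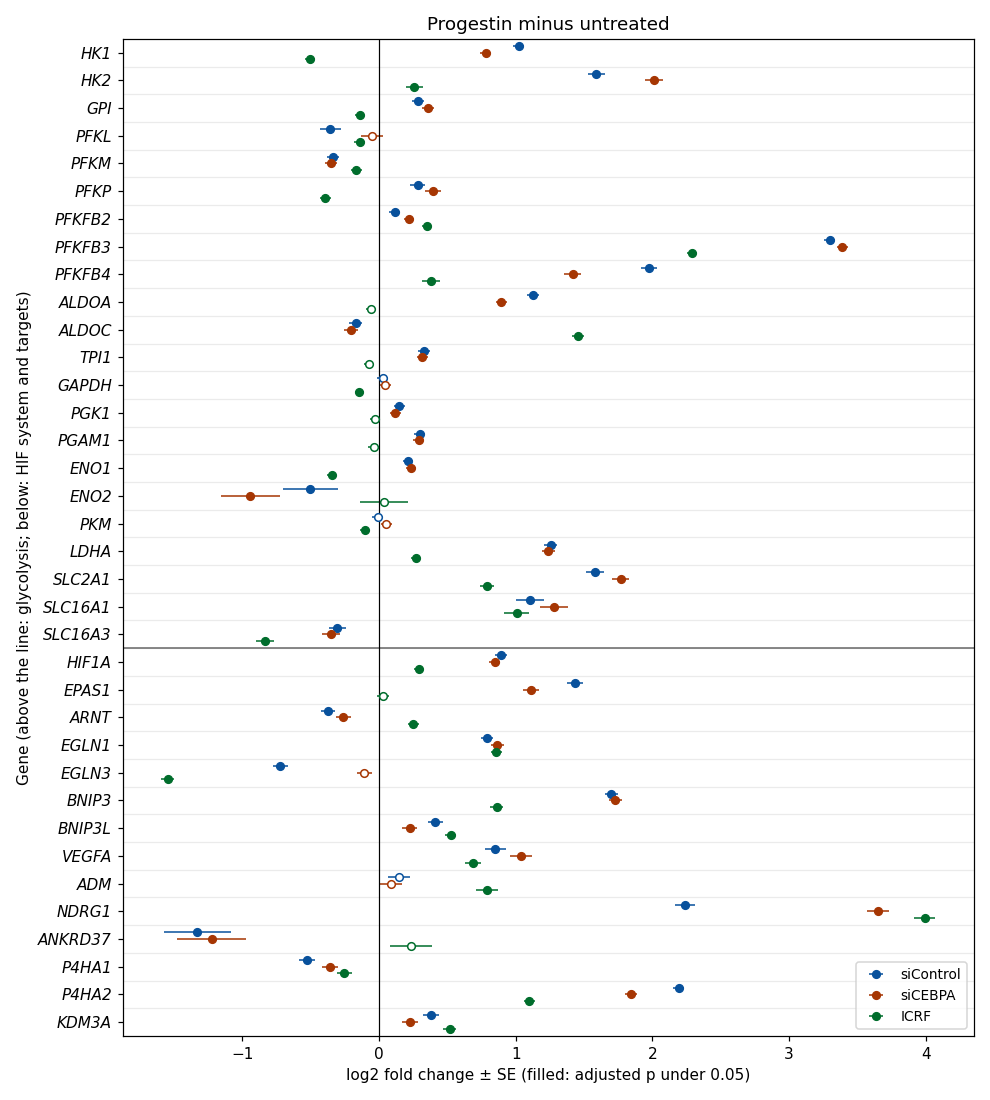
Log2 fold change with progestin (± SE, 2 libraries against 2) of the 36 genes tested, in siControl, siCEBPA and ICRF cells, with filled points for adjusted p under 0.05. The siControl and siCEBPA points lie close together for most genes. Of the genes that passed in both siControl and ICRF cells, HK1, PFKP, GPI and ENO1 lie below 0 only in ICRF cells. ALDOC and ARNT, which passed in both as well, lie above 0 only there. Some genes that did not pass in every setting, such as GAPDH and ANKRD37, cross 0 too.

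Genes of the HIF system moved in part upward with progestin. HIF1A rose from 164 and 155 to 299 and 299 CPM in siControl cells and from 173 and 176 to 322 and 309.6 CPM in siCEBPA cells. In ICRF cells it rose from 175 and 175 to 216 and 217 CPM, a smaller step from a like start. The log2 changes were 0.89 ± 0.04, 0.85 ± 0.04 and 0.29 ± 0.03. EPAS1, the other alpha subunit, read 39.8 and 42.9 against 111 and 115 CPM in siControl, 32.8 and 34.0 against 68.6 and 76.7 CPM in siCEBPA and 62.2 and 62.3 against 64.1 and 64.4 CPM in ICRF cells. It rose by 1.43 ± 0.06 and 1.11 ± 0.06 in the siRNA cells and did not pass in ICRF cells (0.029 ± 0.04, adjusted p = 0.585). Per length, HIF1A gave 84.5% ± 1.22 of the RPKM of these subunits in untreated siControl cells and 79.0% ± 0.390 with progestin.

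ARNT, the shared partner, went the opposite way to HIF1A in siRNA cells. It read 68.3 and 65.5 against 51.3 and 52.7 CPM in siControl and 42.2 and 43.0 against 34.9 and 36.6 CPM in siCEBPA cells, but 74.3 and 73.7 against 87.9 and 90.1 CPM in ICRF cells. It fell by 0.37 ± 0.05 and 0.26 ± 0.05 and rose by 0.25 ± 0.04 in ICRF cells. The prolyl hydroxylases that mark HIF for destruction, both known to be induced by HIF as well, parted. EGLN1 rose by 0.79 ± 0.05, 0.87 ± 0.05 and 0.86 ± 0.04 in siControl, siCEBPA and ICRF cells. EGLN3 read 65.7 and 66.0 against 40.6 and 39.9 CPM in siControl, 40.2 and 44.1 against 39.6 and 39.1 CPM in siCEBPA and 86.4 and 81.1 against 28.9 and 29.1 CPM in ICRF cells. It fell by 0.72 ± 0.06 in siControl and 1.55 ± 0.05 in ICRF cells and did not pass in siCEBPA cells (-0.11 ± 0.06, adjusted p = 0.115). EGLN1 went from 45.3% ± 0.398 to 70.2% ± 0.0288 of the RPKM of the pair in siControl cells and from 43.6% ± 0.677 to 80.3% ± 0.457 in ICRF cells, so in both EGLN3 led the pair before progestin and EGLN1 after it. In siCEBPA cells EGLN1 already led before progestin, with 53.2% ± 2.26, and stood at 69.1% ± 0.925 after it.

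**Figure D3:**
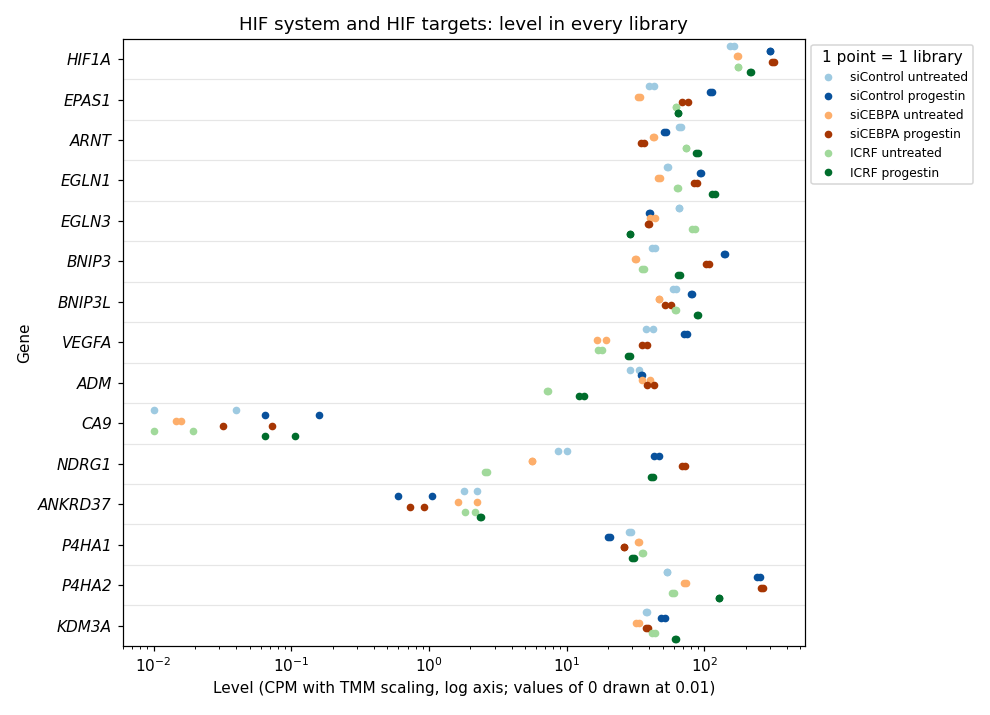
Level of each of the 15 genes of the HIF system and its targets in every library, in CPM with TMM scaling on a log axis, with 1 point per library and colours for the 6 groups; values of 0 are drawn at 0.01. NDRG1 shows the widest step, with 2.63 and 2.57 CPM in ICRF untreated and 42.7 and 41.1 CPM in ICRF progestin libraries, and CA9 stays under 1 CPM.

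The HIF targets did not all move alike with progestin. In siControl cells 6 of the 9 tested rose, 2 fell and ADM did not pass (0.14 ± 0.08, adjusted p = 0.141). Of all genes tested 29.2% rose, and of those with at least 20 CPM 42.9%. The 6 that rose, BNIP3, BNIP3L, VEGFA, NDRG1, P4HA2 and KDM3A, rose in siCEBPA and ICRF cells as well. NDRG1, a stress-responsive gene linked to differentiation, had the largest rise. It read 8.72 and 10.1 CPM untreated and 46.8 and 43.6 CPM with progestin in siControl, 5.64 and 5.60 and then 68.9 and 73.0 CPM in siCEBPA, and 2.63 and 2.57 and then 42.7 and 41.1 CPM in ICRF cells. The untreated level was lowest in ICRF cells and the treated level highest in siCEBPA cells, with no overlap between groups. Its log2 changes were 2.24 ± 0.07 in siControl (4.72-fold), 3.65 ± 0.08 in siCEBPA (12.5-fold) and 3.99 ± 0.07 in ICRF cells (15.9-fold, adjusted p = 9.03e-38).

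P4HA2, a subunit of the enzyme that hydroxylates collagen, read 53.9 and 53.7 against 253 and 242 CPM in siControl, 74.0 and 71.6 against 258 and 268 CPM in siCEBPA and 60.1 and 58.3 against 127 and 129 CPM in ICRF cells. It rose by 2.19 ± 0.04, 1.85 ± 0.04 and 1.10 ± 0.04. Its sister P4HA1 fell by 0.53 ± 0.06, 0.36 ± 0.06 and 0.25 ± 0.05 in the same order. P4HA2 gave 40.2% ± 0.466 of the RPKM of the pair in untreated siControl cells and 81.6% ± 0.704 with progestin, and 37.6% ± 0.0976 and 60.6% ± 0.293 in ICRF cells. The order before progestin rests on the division by gene length: in plain counts P4HA2 led already, with 64.9% before and 92.4% after progestin in siControl and 62.4% and 80.9% in ICRF cells.

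BNIP3, a driver of mitophagy, rose from 42.0 and 43.8 to 143 and 139 CPM in siControl, from 32.0 and 31.6 to 104 and 108 CPM in siCEBPA and from 36.5 and 35.2 to 64.6 and 67.0 CPM in ICRF cells. The log2 changes were 1.70 ± 0.05, 1.73 ± 0.05 and 0.86 ± 0.05. Its relative BNIP3L rose less, by 0.41 ± 0.05, 0.22 ± 0.06 and 0.52 ± 0.04. VEGFA, the angiogenic growth factor, rose from 37.6 and 42.4 to 74.5 and 71.3 CPM in siControl and from 16.6 and 19.4 to 35.4 and 38.6 CPM in siCEBPA cells, by 0.85 ± 0.07 and 1.04 ± 0.08. It rose by 0.69 ± 0.06 in ICRF cells. KDM3A, a histone demethylase, rose by 0.38 ± 0.06, 0.23 ± 0.06 and 0.52 ± 0.05.

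ADM, the vasodilator adrenomedullin, read 29.1 and 33.8 against 34.7 and 35.6 CPM in siControl cells and rose in ICRF cells from 7.37 and 7.25 to 13.3 and 12.2 CPM, by 0.79 ± 0.08. Without siControl untreated replicate 2 its siControl rise passed too (log2 0.26, adjusted p = 0.0162). ANKRD37, a small HIF target near 2 CPM when untreated, fell by 1.33 ± 0.25 in siControl and 1.22 ± 0.25 in siCEBPA cells and did not pass in ICRF cells (0.23 ± 0.15, adjusted p = 0.193). CA9, the carbonic anhydrase often used as a tissue marker of hypoxia, was at most 0.158 CPM in any library and did not pass the filter on low counts.

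In siCEBPA cells, of 22 glycolysis genes 15 rose and 4 fell, and of 14 hypoxia genes 9 rose and 3 fell, where 58.2% of all genes tested passed (29.9% upward, 28.4% downward). Among genes with at least 20 CPM 70.7% passed (44.8% upward, 25.9% downward), against 28 of 33 members. The siControl and siCEBPA responses share no library: 24 genes rose in both, 7 fell in both and 0 had opposite calls. In ICRF cells 8 of 22 glycolysis genes rose and 9 fell, with a median of -0.05, and 10 of 14 hypoxia genes rose and 2 fell, with a median of 0.52. There 61.4% of all 18556 genes passed (31.3% upward, 30% downward). Of those with at least 20 CPM 77.7% passed (41.1% upward, 36.6% downward), against 28 of 33 members. Between siControl and ICRF cells, which share no library either, 15 genes rose in both, 5 fell in both, and HK1, GPI, PFKP, ENO1, ALDOC and ARNT had opposite calls. For neither pair of settings were shared calls counted over all genes. Whether such agreement is particular to these genes was therefore not tested.

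Whether a response differed was tested directly as an interaction. Between siCEBPA and siControl cells 8 of the 36 genes tested passed, where 7.24% of all genes tested and 12.3% of those with at least 20 CPM did. Of these, HK2, EGLN3 and NDRG1 had a higher response in siCEBPA cells (4.19% of all genes upward), and HK1, PFKFB4, ALDOA, EPAS1 and P4HA2 a lower one (3.06% downward). Among genes with at least 20 CPM 6.9% were higher and 5.37% lower. NDRG1 differed most, by 1.41 ± 0.11 on the log2 scale (adjusted p = 1.44e-06), followed by EGLN3 (0.62 ± 0.08, adjusted p = 1.46e-04) and PFKFB4 (-0.56 ± 0.08, adjusted p = 5.16e-04). The difference for PFKFB3 was 0.092 ± 0.05, adjusted p = 0.398, and for LDHA -0.017 ± 0.06, adjusted p = 0.934.

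Calls for this difference near the threshold rested on single libraries. EPAS1 missed it without siControl untreated replicate 1 (adjusted p = 0.0862), either siControl progestin library (0.0798 and 0.127), either siCEBPA untreated library (0.0525 and 0.0977) or siCEBPA progestin replicate 1 (0.0821). ALDOA missed it without siControl untreated replicate 1 (0.0606), siControl progestin replicate 1 (0.116), siCEBPA untreated replicate 1 (0.0960) or siCEBPA progestin replicate 1 (0.0547). HK1 missed it without siControl untreated replicate 2 (0.0526), either siControl progestin library (0.0662 and 0.0677) or siCEBPA untreated replicate 1 (0.0636), and HK2 without siControl progestin replicate 1 (0.0649). PFKL, SLC2A1 and BNIP3L, which did not pass, did so without siCEBPA progestin replicate 1 (PFKL, adjusted p = 0.00969, and BNIP3L, 0.0404) or siControl untreated replicate 1 (SLC2A1, 0.0478).

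Between ICRF and siControl cells the response differed for 28 of the 36 genes, where 48.9% of all 19003 genes tested and 69.6% of those with at least 20 CPM passed (27 of 33 members at that level). It was lower in ICRF cells for 15 of 22 glycolysis genes and higher for PFKM, PFKFB2 and ALDOC, against 24% and 24.9% of all genes. Among genes with at least 20 CPM 39.4% were lower and 30.2% higher. On the hypoxia side 5 of 14 were lower and 5 higher. The median difference was -0.41 over the glycolysis genes, 0.09 over the hypoxia genes and 0.02 over all genes. Genes with at least 20 CPM leaned downward here, and no median was taken over them. The lowest values were those of PFKFB4 (-1.59 ± 0.08), HK1 (-1.52 ± 0.05), EPAS1 (-1.40 ± 0.07) and HK2 (-1.32 ± 0.09). The highest were those of NDRG1 (1.76 ± 0.10), ALDOC (1.63 ± 0.06) and ANKRD37 (1.57 ± 0.30). SLC16A1 (-0.094 ± 0.13, adjusted p = 0.607), VEGFA (-0.16 ± 0.10, adjusted p = 0.207) and EGLN1 (0.069 ± 0.06, adjusted p = 0.376) did not pass.

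**Figure D4:**
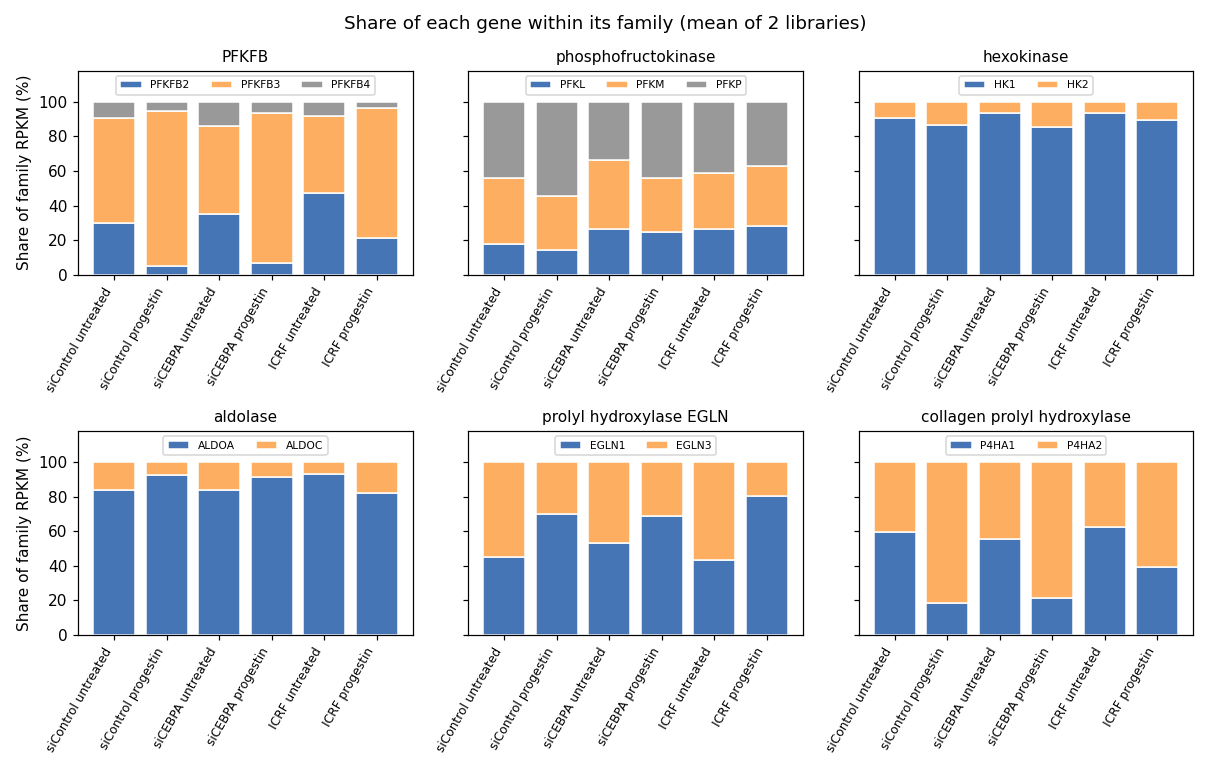
Share of each gene in the summed RPKM of its family, as the mean of the 2 libraries of each of the 6 groups, for the PFKFB, phosphofructokinase, hexokinase, aldolase, EGLN and collagen prolyl hydroxylase families. PFKFB3, EGLN1 and P4HA2 take larger shares in all progestin groups, while the share of ALDOC is smaller with progestin in siRNA cells and larger in ICRF cells.

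CEBPA siRNA lowered most glycolysis genes by small amounts, with or without hormone. In untreated cells 18 of 22 fell, PFKL and PFKFB4 rose, and PGAM1 and ENO2 did not pass. There 46.6% of all genes tested passed (22.6% upward, 24% downward), and 61.5% of those with at least 20 CPM (39% downward), against 32 of 33 members. In progestin-treated cells 17 of 22 fell and PFKL rose, where 44.6% of all genes tested passed (22.5% upward, 22.1% downward). Of those with at least 20 CPM 60.8% passed (24.6% upward, 36.2% downward), against 27 of 33 members. The median log2 difference was -0.21 untreated and -0.27 with progestin, against 0.01 and 0.02 over all genes, and 0 of 22 glycolysis genes differed by 2-fold, where 6.8% (untreated) and 6.59% (progestin) of all genes passed with such a difference. Genes with at least 20 CPM leaned downward too, in untreated cells with 22.4% higher and 39% lower, and no median was taken over them. The enzyme sum was 6976 ± 70.1 CPM in siControl and 5781 ± 173 CPM in siCEBPA untreated cells. These comparisons use the same libraries as the hormone comparisons, so their values are not independent of them.

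**Figure D5:**
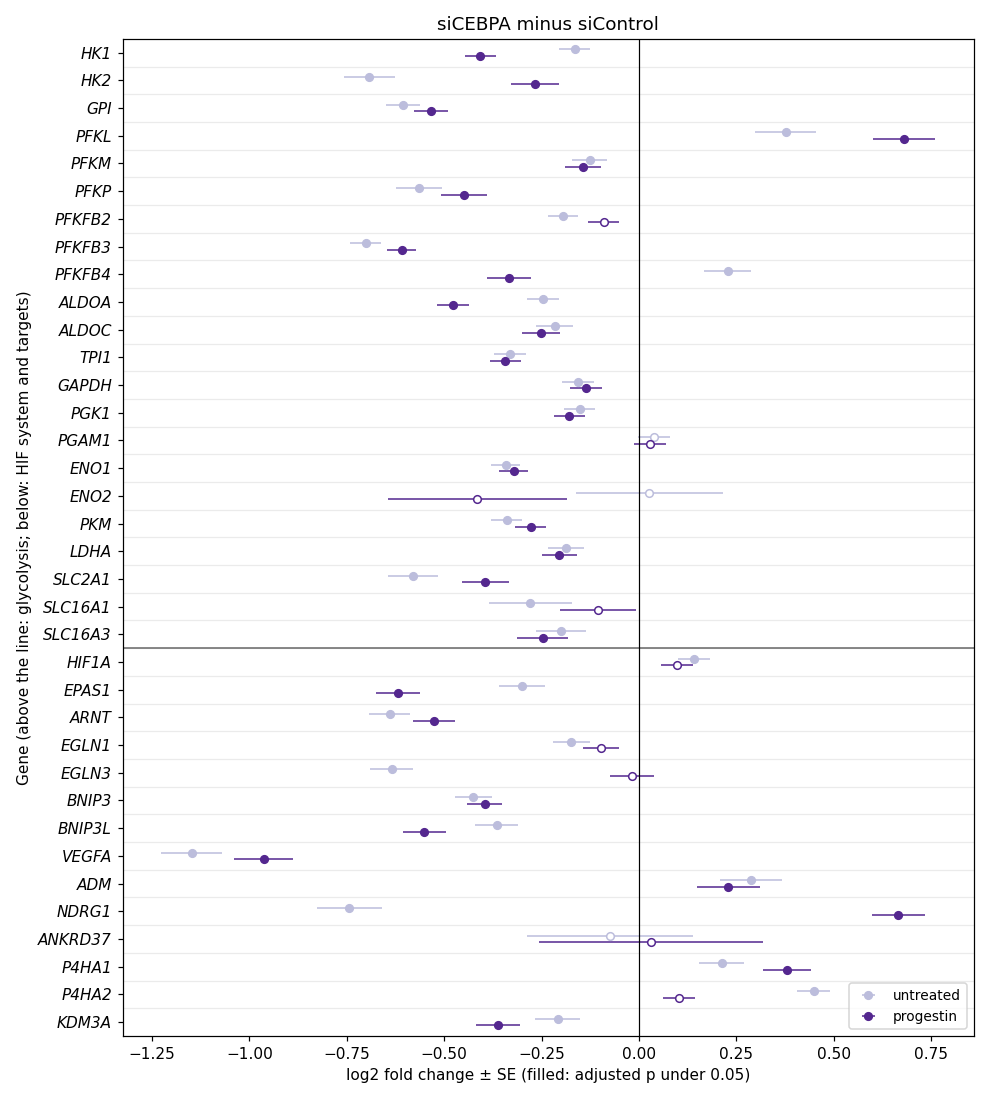
Log2 fold change of siCEBPA against siControl cells (± SE, 2 libraries against 2) of the 36 genes tested, in untreated and progestin-treated cells, with filled points for adjusted p under 0.05. Most glycolysis genes lie left of 0 in both, VEGFA lies furthest left, and NDRG1 and PFKFB4 lie on opposite sides of 0 in untreated and treated cells.

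Among the enzymes PFKFB3 was 0.70 ± 0.04 lower in untreated and 0.61 ± 0.04 lower in treated siCEBPA cells on the log2 scale, that is 945 ± 23.1 CPM against 1456 ± 7.59 CPM with progestin. GPI fell by 0.61 ± 0.04 and 0.53 ± 0.04, PFKP by 0.56 ± 0.06 and 0.45 ± 0.06, and HK2 by 0.69 ± 0.07 and 0.27 ± 0.06. The lower pathway fell by less, with ENO1 at -0.34 ± 0.04 and -0.32 ± 0.04, PKM at -0.34 ± 0.04 and -0.28 ± 0.04, and LDHA at -0.19 ± 0.05 and -0.20 ± 0.05. HK1 fell by 0.17 ± 0.04 untreated and 0.41 ± 0.04 with progestin, and ALDOA by 0.25 ± 0.04 and 0.48 ± 0.04. TPI1 fell by 0.33 ± 0.04 and 0.34 ± 0.04, PGK1 by 0.15 ± 0.04 and 0.18 ± 0.04, and ALDOC by 0.22 ± 0.05 and 0.25 ± 0.05.

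PFKL went the other way, from 83.1 and 94.2 CPM in siControl to 112 and 117 CPM in siCEBPA untreated cells (log2 0.38 ± 0.08) and from 67.4 and 72.6 to 102 and 120.0 CPM in treated cells (0.68 ± 0.08). PFKFB4 was 0.23 ± 0.06 higher in untreated siCEBPA cells, a call lost without siControl untreated replicate 2 (log2 0.14, adjusted p = 0.115), and 0.33 ± 0.06 lower in treated ones. GAPDH, PFKM and SLC16A3 each fell by at most 0.25 in either condition, and each missed the threshold without 1 or more libraries. For GAPDH these were siCEBPA untreated replicate 2 (adjusted p = 0.0614), siControl progestin replicate 2 (0.0773) and siCEBPA progestin replicate 2 (0.0928). PFKM missed it without siControl untreated replicate 1 (0.121) or siCEBPA untreated replicate 2 (0.232), and in treated cells without either siControl progestin library (0.0574 and 0.0746) or siCEBPA progestin replicate 2 (0.151). SLC16A3 missed it without siControl untreated replicate 2 (0.141), siCEBPA untreated replicate 2 (0.128) or, in treated cells, siCEBPA progestin replicate 1 (0.0770).

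SLC2A1 fell by 0.58 ± 0.06 in untreated and 0.39 ± 0.06 in treated siCEBPA cells. SLC16A1 fell by 0.28 ± 0.11 untreated, a call lost without siControl untreated replicate 1 (adjusted p = 0.0975), siControl untreated replicate 2 (0.0854) or siCEBPA untreated replicate 2 (0.313), and did not pass with progestin (-0.10 ± 0.10, adjusted p = 0.409). PFKFB2 fell by 0.20 ± 0.04 untreated and did not pass with progestin (-0.091 ± 0.04, adjusted p = 0.0751).

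On the hypoxia side 9 of 14 genes fell and 4 rose in untreated siCEBPA cells, and 6 fell and 3 rose in treated ones. The 9 of 14 that passed in treated cells (64.3%) compare with 44.6% of all genes tested and 60.8% of those with at least 20 CPM, and the 13 of 14 in untreated cells with 46.6% and 61.5%. VEGFA gave the largest difference, at 16.6 and 19.4 CPM against 37.6 and 42.4 CPM in siControl untreated cells, and 35.4 and 38.6 against 74.5 and 71.3 CPM with progestin. It fell by 1.15 ± 0.08 (2.22-fold, adjusted p = 2.16e-08) and by 0.96 ± 0.08, and the groups did not overlap. The siCEBPA progestin libraries overlapped the untreated siControl libraries. ARNT fell by 0.64 ± 0.05 and 0.53 ± 0.05, EPAS1 by 0.30 ± 0.06 and 0.62 ± 0.06, BNIP3 by 0.42 ± 0.05 and 0.40 ± 0.05, and BNIP3L by 0.37 ± 0.05 and 0.55 ± 0.05. EGLN3 fell by 0.63 ± 0.05 untreated only (-0.018 ± 0.06, adjusted p = 0.818 with progestin), and its difference between the conditions is the interaction given above.

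NDRG1 changed sides: it was 0.74 ± 0.08 lower in untreated and 0.67 ± 0.07 higher in treated siCEBPA cells. P4HA2 rose by 0.45 ± 0.04 untreated and did not pass with progestin (0.10 ± 0.04, adjusted p = 0.0536), while P4HA1 rose by 0.21 ± 0.06 and 0.38 ± 0.06. The P4HA1 rise in untreated cells was lost without siControl untreated replicate 2 (adjusted p = 0.0676) or siCEBPA untreated replicate 1 (0.0502). ADM rose by 0.29 ± 0.08 and 0.23 ± 0.08, calls lost without siControl untreated replicate 1 (0.101) or siCEBPA untreated replicate 2 (0.132), and with progestin without either siControl library (0.210 and 0.0965) or siCEBPA replicate 2 (0.203). HIF1A rose by 0.14 ± 0.04 untreated, lost without siControl untreated replicate 2 (0.163) or siCEBPA untreated replicate 2 (0.0667), and did not pass with progestin (0.096 ± 0.04, adjusted p = 0.0693), though it did without siCEBPA progestin replicate 2 (0.0417). EGLN1 fell by 0.17 ± 0.05 and KDM3A by 0.21 ± 0.06 in untreated cells, both lost without siCEBPA untreated replicate 2 (0.0625 and 0.0749). KDM3A also fell with progestin, by 0.36 ± 0.06. ANKRD37 passed in neither condition.

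Other genes of both pathways were read from wider lists. Of 25 further genes of glucose metabolism 17 were tested in siControl cells, and 5 rose and 6 fell with progestin. These 64.7% are near the 58.5% of all genes tested that passed (29.2% upward, 29.3% downward). Among them FBP1, the gluconeogenic bisphosphatase that opposes phosphofructokinase, fell by 0.71 ± 0.07. Of 39 further genes known from hypoxia 38 were tested, and 19 rose and 8 fell, 71.1% in all, above the same 58.5%. Among genes with at least 20 CPM 71.5% passed (42.9% upward, 28.6% downward), though neither list was cut by level. AK4, a mitochondrial adenylate kinase, rose by 1.65 ± 0.05 and DDIT4, an inhibitor of mTORC1, by 1.68 ± 0.06. STC2, a secreted glycoprotein, fell by 1.61 ± 0.05 and EDN1, the vasoconstrictor endothelin, by 1.42 ± 0.05. The medians of these 2 wider lists in siControl cells, 0.05 and 0.17, lay below those of the glycolysis and hypoxia genes described above. Since all lists were chosen with earlier results of these data known, this order tests nothing.

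In ICRF cells 7 of 18 further glycolysis genes rose and 4 fell, and 19 of 37 further hypoxia genes rose and 9 fell. These shares, 61.1% and 75.7%, each stand beside both 61.4% of all genes tested and 77.7% of those with at least 20 CPM. BPGM, of the bisphosphoglycerate side branch, and TIGAR, a phosphatase that lowers glycolytic flux, rose there by 0.70 ± 0.06 and 0.62 ± 0.08. LOX, an enzyme that crosslinks collagen, rose from 0.974 ± 0.167 to 9.65 ± 0.575 CPM, by 3.29 ± 0.13, and STC2 fell by 2.64 ± 0.04. DDIT4 was the further hypoxia gene with the smallest adjusted p under CEBPA siRNA, and fell by 1.45 ± 0.06 in untreated and 1.02 ± 0.06 in treated cells.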

How the data were processed

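RNA-seq counts of 12 libraries were used; the 18 ChIP samples were not analysed here. The deposited values are raw counts of read pairs per gene, made by the authors with featureCounts 1.5.1 in paired, reverse-strand mode on GENCODE 24 and hg38 from STAR alignments, per the file headers; the submitters' processing notes name Trimmomatic. How the added sequence named in the assembly folder bears on these genes was not examined.

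Counts were filtered (filterByExpr), scaled (TMM) and tested with edgeR 4.0.16 (quasi-likelihood, robust; limma 3.58.1, R 4.3.3). The threshold was a Benjamini-Hochberg adjusted p of 0.05 over all genes tested. The SE is the log2 change over the square root of F. The 8 siRNA libraries were fitted together (18351 genes, 4 residual degrees of freedom), the 4 ICRF libraries apart (18556 genes, 2), and all 12 for the difference of responses between ICRF and siControl (19003 genes, 6). RPKM used the deposited gene length. The steps were tested on simulated counts. DESeq2 1.42.0, other scalings, no filter, a replicate block and leaving out each library were alternatives. The 38 genes and all lists were chosen with earlier results of these data known. All 38 genes could be named, and of each wider list the 4 with the smallest adjusted p in a comparison; of those the text names a part, and values of one gene are not reported here. Replicates correlated at 0.9985 to 0.9992 (Pearson, log2 CPM) and differed by a mean chi-square per gene of 4.55 to 14.0, so none was a repeat deposit. Promoter letters are from RefSeq (GRCh38.p14), matched by symbol and chromosome.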

Additional observations from a re-analysis of the deposited data

Results flagged for a closer look

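The progestin response differed between siCEBPA and siControl cells, by the interaction test of edgeR at an adjusted p under 0.05, for 8 of the 36 genes tested. The same held for 7.24% of all genes tested and 12.3% of those with at least 20 CPM. As differences of log2 changes, siCEBPA minus siControl, the values were HK1 (-0.24 ± 0.06), PFKFB4 (-0.56 ± 0.08), ALDOA (-0.23 ± 0.06), EPAS1 (-0.32 ± 0.08) and P4HA2 (-0.35 ± 0.06) on the lower side, and HK2 (0.43 ± 0.09), EGLN3 (0.62 ± 0.08) and NDRG1 (1.41 ± 0.11) on the higher side. Between ICRF and siControl cells the response differed for 28 genes, where 48.9% of all genes tested and 69.6% of those with at least 20 CPM passed. Among the glycolysis genes the values, ICRF minus siControl, were HK1 (-1.52 ± 0.05), HK2 (-1.32 ± 0.09), GPI (-0.43 ± 0.06), PFKP (-0.67 ± 0.09), PFKFB3 (-1.002 ± 0.05), PFKFB4 (-1.59 ± 0.08), ALDOA (-1.18 ± 0.05), TPI1 (-0.40 ± 0.05), GAPDH (-0.17 ± 0.05), PGK1 (-0.18 ± 0.05), PGAM1 (-0.33 ± 0.06), ENO1 (-0.56 ± 0.05), LDHA (-0.98 ± 0.06), SLC2A1 (-0.79 ± 0.10) and SLC16A3 (-0.53 ± 0.10), and on the higher side PFKM (0.17 ± 0.06), PFKFB2 (0.24 ± 0.05) and ALDOC (1.63 ± 0.06). Among the hypoxia genes they were HIF1A (-0.60 ± 0.05), EPAS1 (-1.40 ± 0.07), EGLN3 (-0.82 ± 0.07), BNIP3 (-0.83 ± 0.06) and P4HA2 (-1.09 ± 0.06), and on the higher side ARNT (0.63 ± 0.06), ADM (0.65 ± 0.12), NDRG1 (1.76 ± 0.10), ANKRD37 (1.57 ± 0.30) and P4HA1 (0.28 ± 0.08).

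PFKM, GAPDH and P4HA1 lost the call against ICRF without 1 or more libraries. P4HA1 did so without ICRF progestin replicate 2 (adjusted p = 0.0588). GAPDH did so without ICRF untreated replicate 1 (0.0515), siControl untreated replicate 2 (0.0697) or siControl progestin replicate 2 (0.0551). PFKM lost it without 8 of the 12 libraries in turn (0.0515 to 0.153) and with DESeq2 (0.0625). PFKL and PKM, which did not pass, did so without siControl untreated replicate 1 (PFKL, 0.0208), siCEBPA progestin replicate 1 (PFKL, 0.0222), ICRF progestin replicate 1 (PKM, 0.0180), siCEBPA untreated replicate 1 (PKM, 0.0375) or siCEBPA untreated replicate 2 (PKM, 0.0386).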

How the results depend on the processing

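Calls of single genes kept direction and side of the threshold in 251 of 252 values with relative log expression factors, 250 with DESeq2, 249 with no filter on low counts, 246 with the replicate block, 233 with upper quartile factors and 212 without scaling factors. In the fit of all 12 libraries 212 of 216 did so. When each library was left out in turn, 1934 of 2016 values stayed, 69 lost and 13 gained the threshold, and 0 turned. Without scaling factors the following turned direction: in siControl cells PFKFB2 (-0.040), GAPDH (-0.13, adjusted p = 0.010) and PGK1 (-0.0081), and in siCEBPA cells GAPDH (-0.12), PGK1 (-0.046) and PKM (-0.11). With upper quartile factors PGK1 turned in siCEBPA cells (-0.010). Scaling moved the median of all genes in siControl cells from -0.03 to -0.15 (upper quartile) and -0.19 (none). A factor moves every gene of a library alike. The gaps of 0.32 (glycolysis) and 0.64 (hypoxia) above that median were thus fixed under all 4 scalings and test nothing. With upper quartile and with no factors the glycolysis median was 0.17 and 0.13, against 0.28. The hypoxia median was 0.49 and 0.45, against 0.60. The share of calls that were upward went from 49.97% to 38.2% and 33.9% in siControl cells and from 51.3% to 36.9% and 33.3% in siCEBPA cells under these 2 scalings. For the knockdown it went from 48.5% to 56.2% and 65.3% untreated and from 50.5% to 54.8% and 64.9% treated, and for the response of ICRF minus siControl from 50.9% to 54.9% and 65.2%. Without scaling factors 13 glycolysis genes, not 20, passed for the knockdown in untreated cells.

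For the difference of responses between siCEBPA and siControl, 1329 genes passed. Leaving out a library gave 692 to 1381, the lowest without siControl progestin replicate 1, and 779 without siControl progestin replicate 2. Of the glycolysis genes 4 passed, and 1 to 4 did so with a library left out, with 1 without siControl progestin replicate 1 and 2 without siCEBPA untreated replicate 1. With the replicate number as a block 2271 genes passed for this difference. The deviations of same-numbered libraries correlated at 0.26 to 0.32 among siControl untreated, siCEBPA untreated and siCEBPA progestin. With siControl progestin these groups gave 0.002 to 0.04. The ICRF pair gave 0.04, and ICRF against siRNA groups -0.18 to 0.06. Whether some siRNA groups share a replicate effect was not tested. The labels give only a number, so the block has no stated basis. It brought 6 calls past the threshold among the single genes, namely ADM with progestin in siControl (adjusted p = 0.0214), HIF1A (0.0252), P4HA2 (0.0217) and PFKFB2 (0.0396) for the knockdown in treated cells, and PFKL for both differences of response (0.00165 and 0.0376), and ended none. A lone library left in a group was assumed to vary like the others. Precision was limited for LDHB, CA9, ENO2 and ANKRD37, all at most 2.39 CPM in any library, and low level and depth were not told apart there.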

Other observations

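Before hormone, the levels of several of these genes lay apart in ICRF and siControl libraries. The groups were not tested against each other, and siRNA, arrest and time label differ as well. The genes given are examples, and no share was taken over all genes. PFKFB3 was 65.6 ± 2.69 CPM in ICRF untreated and 147 ± 2.72 CPM in siControl untreated cells, ADM 7.31 ± 0.0832 against 31.4 ± 3.32, ALDOC 29.1 ± 0.270 against 79.0 ± 2.38, NDRG1 2.60 ± 0.0434 against 9.41 ± 0.980 and VEGFA 17.5 ± 0.730 against 40.0 ± 3.42 CPM. EPAS1 was 62.3 ± 0.112 against 41.4 ± 2.18, PGAM1 151 ± 6.47 against 92.0 ± 1.37 and ENO1 1567 ± 20.8 against 1269 ± 4.30 CPM. GAPDH was 1153 ± 1.17 against 1021 ± 26.2 CPM, while HK1 was close, at 275 ± 1.53 against 279 ± 3.45 CPM.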
